A study of Homo sapiens with 6 samples.

Results

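Pyruvate dehydrogenase kinases (PDK1, PDK2, PDK3 and PDK4), pyruvate dehydrogenase phosphatases (PDP1 and PDP2 with their regulatory subunit PDPR) and the mitochondrial pyruvate carrier subunits MPC1 and MPC2 decide how much pyruvate enters mitochondria and how much of it is oxidised. These 9 genes were chosen by name, out of 16327 genes with usable counts, and their counts were summed from 47 of 79004 transcripts. The kinases phosphorylate the E1 alpha subunit of the pyruvate dehydrogenase complex and switch it off, and the phosphatases remove the phosphate and switch it on again. MPC1 and MPC2 form a heterodimer in the inner mitochondrial membrane that lets pyruvate in. In many tumours PDK1 is known to be raised by the hypoxia factor HIF1, and low MPC1 is known from several carcinomas. CPI-613 (devimistat), a lipoate analogue, is directed against the lipoate-bearing pyruvate and 2-oxoglutarate dehydrogenase complexes, and is known to act in part through the kinases described here, which sense the lipoyl groups of the complex.

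Cells of HN12, an established line of human head and neck squamous cell carcinoma, were kept in serum-containing DMEM and given either the solvent DMSO, the Control group, or CPI-613, in each case for 24 h. No genotype differed between the groups, and the dose of CPI-613 is not given in the sources used here. Each group had 3 RNA-seq libraries, and since nothing states that they came from separate cultures, the p-values reflect how far these libraries spread, a spread that may be only technical. The results hold for this 1 line, and RNA of these enzymes was measured, not their protein, phosphorylation or activity.

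Depth was 11531942 to 12508570 estimated counts in Control and 13458530 to 15486513 with CPI-613. All 12 squamous epithelial markers fixed for the check of the label, among them the keratins KRT5 and KRT14, reached at least 1 CPM (counts relative to the scaled library total) in every library. Of 10 leukocyte, 6 fibroblast and 5 endothelial markers, 7, 4 and 4 stayed under 1 CPM in every library or were not listed. Libraries of the same group were not alike. Counts of Control replicates 1 and 3 differed by a chi-square of 3.86 per degree of freedom, against 34.3 and 43.7 for Control replicate 2, and it reached 200 between CPI-613 replicates 1 and 3. The quasi-likelihood test of edgeR covered 12671 genes, of which 246 were higher and 157 lower with CPI-613 at a Benjamini-Hochberg adjusted p under 0.05, together 3.18%. When libraries were scaled by their total only, 229 were higher and 259 lower, and the median change over all genes moved from 0.02 to -0.17 (log2). Leaving out either Control replicate 1 or Control replicate 3 ended every edgeR call (0 genes), and 7 were called without CPI-613 replicate 2.

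The sequences before the transcription start are shown for the 5 genes whose promoter held the letters ACGTG, the core of the hypoxia response element, because PDK1 and PDK3 are known targets of HIF1. They were read from the RefSeq promoter table (GRCh38 patch 14), which covers 250 bases before to 50 after a start. The table holds 14 starts for 8 of the 9 genes, and PDP1 has no entry. Each line gives 60 bases 5′ to 3′ on the coding strand, with capitals for ACGTG or its reverse complement CACGT.
PDK1, chr2:172556030-172556089, plus strand: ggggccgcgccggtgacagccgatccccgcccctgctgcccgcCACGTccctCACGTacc
PDK2, chr17:50095194-50095253, plus strand: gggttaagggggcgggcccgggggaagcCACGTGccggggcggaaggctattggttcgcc
PDK3, chrX:24465197-24465256, plus strand: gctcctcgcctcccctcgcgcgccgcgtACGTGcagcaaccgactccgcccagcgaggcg
PDP2, chr16:66880290-66880349, plus strand: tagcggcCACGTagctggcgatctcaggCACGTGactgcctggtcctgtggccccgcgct
PDPR, chr16:70114145-70114204, plus strand: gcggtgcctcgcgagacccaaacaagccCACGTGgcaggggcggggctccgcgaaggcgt

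PDK1 carried its pair of matches 17 and 8 bases before the downstream one of its starts in the table. In PDK2 and PDPR the match was part of CACGTG, an E-box, which holds ACGTG on both strands. PDP2 had a CACGTG 197 bases before its start and another match, outside any CACGTG, 218 bases before it. ACGTG or its complement was found in 5 of the 14 member windows and in 21.4% of all 35116 windows of 300 bases in the table, and CACGTG in 7.3% of them. TGACCT, a nuclear receptor core motif, was found at 1 member start, a PDPR start, and in 13.8% of all windows. GTAAACA, a forkhead motif, and TGATGNAAN, the C/EBP-ATF response element, were found at 0 of the 14 starts and in 3.4% and 3.6% of all windows. Both strands were searched for each motif. These are matches of letters in short windows and no measure of binding.

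In the deposited per-length values (FPKM, counts relative to transcript length and library total), the carriers stood highest of the 9 genes. MPC2 had a median of 32.14 FPKM over the 6 libraries and MPC1 25.88. PDP1 followed at 13.78, PDPR at 11.64, PDK2 at 8.50, PDK1 at 6.37 and PDP2 at 4.12 FPKM. PDK3 had a median of 0.33 and PDK4 of 0.03 FPKM. From MPC2 down to PDP2, each gene's range over the 6 libraries overlapped that of the next. Within libraries, MPC1 stood above PDP1 and PDPR above PDK2 in 6 of 6, MPC2 above MPC1 and PDK1 above PDP2 in 5, PDK2 above PDK1 in 4 and PDP1 above PDPR in 3. A clear gap came below PDP2, whose lowest library (3.53 FPKM) lay above the highest of PDK3 (0.44 FPKM). The range of PDK3 (0.10 to 0.44) in turn lay above that of PDK4 (0.02 to 0.07).

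**Figure D1:**
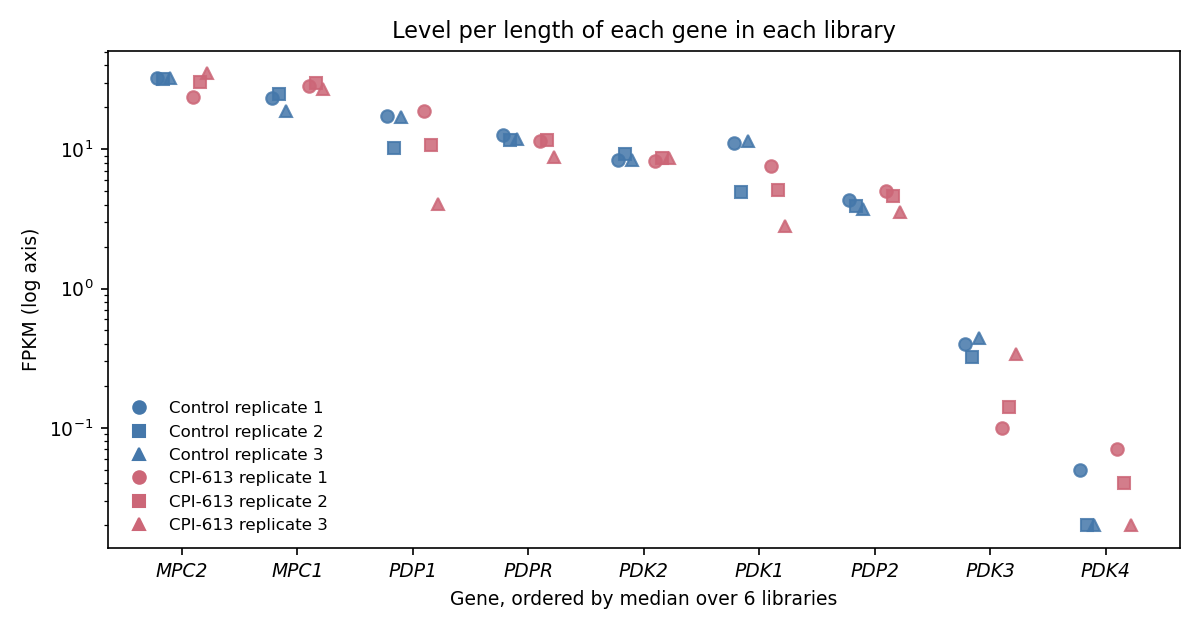
Level per length of the 9 genes in each library, in FPKM on a log axis, with genes ordered by their median over 6 libraries; blue symbols are Control and red symbols CPI-613, and the symbol shape gives the replicate number. MPC2 and MPC1 stand highest, PDK3 and PDK4 lie below 0.5 FPKM in every library, and PDK1 and PDP1 spread most between libraries of one group among the 7 genes above PDK3.

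After 24 h with CPI-613 none of the 7 tested genes was called changed. MPC1 and PDP2 were above every Control library in every CPI-613 library by CPM, with log2 fold changes of 0.51 and 0.32 that did not pass the test. PDK1 had the estimate farthest from 0, -0.78, and it also had a wide spread between libraries. PDK3 and PDK4 had too few counts to enter the test. In such bulk samples, fewer cells with a transcript and less of it per cell cannot be told apart.

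Of the 7 tested members 0 were called higher and 0 lower by edgeR's quasi-likelihood test with Benjamini-Hochberg adjustment over all genes, against 3.18% of all tested genes. At an unadjusted p under 0.05 edgeR also gave 0 of 7, against 14.4% of all genes. DESeq2 called 0 members after adjustment (7.05% of all genes) and gave 1, MPC1, at an unadjusted p under 0.05 (14.8%). For limma-voom the counts were also 0 (3.27%) and 1, again MPC1 (14.3%). GC- and length-adjusted as described for PDK1, edgeR called 0 members and 11.7% of all genes. The median log2 fold change of the 7 genes was 0.06, beside 0.02 over all tested genes, with 4 estimates above 0 and 3 below. Groups did not overlap by CPM in 2 of the 7, MPC1 and PDP2, both higher, where 11.8% of all tested genes were higher in this way and 21% did not overlap in either direction. With 7 genes, these counts do not set the members apart from the whole table.

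**Figure D2:**
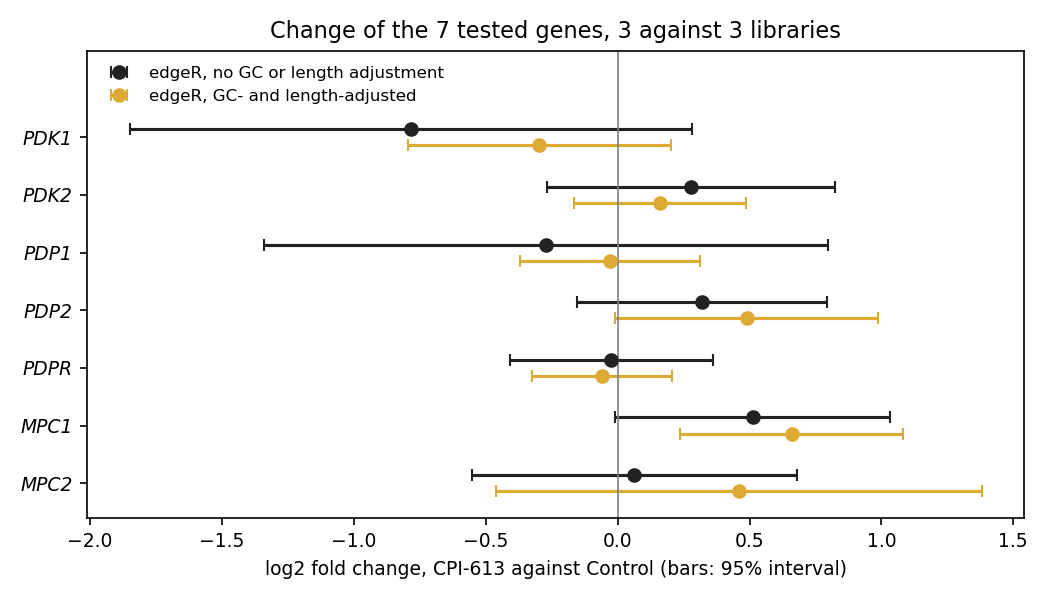
Log2 fold change of CPI-613 against Control for the 7 tested genes, with 95% intervals as bars, from edgeR without (black) and with (yellow) adjustment for GC content and length, 3 against 3 libraries. All black intervals include 0; of the yellow ones that of MPC1 lies above 0, from 0.24 to 1.08.

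Of the kinases, PDK1 and PDK2 made up nearly all of the RNA. PDK1 (gene ID 5163, chromosome 2 at 172555373 to 172724312, GRCh38) measured 40.5, 17.1 and 40.9 CPM in Control replicates 1 to 3 and 27, 19.5 and 10.7 CPM in CPI-613 replicates 1 to 3. Control replicates 1 and 3 were the highest libraries and CPI-613 replicate 3 the lowest, and the groups overlapped because Control replicate 2 lay below CPI-613 replicates 1 and 2. The log2 fold change was -0.78 (SE 0.45, 95% interval -1.85 to 0.28; edgeR, Benjamini-Hochberg adjusted p = 0.544). Leaving out CPI-613 replicate 3 gave -0.49, and leaving out CPI-613 replicate 1 gave -1.12. A further fit left out Control replicate 2 and CPI-613 replicate 3, the lowest PDK1 library of each group, a choice made after seeing the values. Its log2 fold change was -0.85 (SE 0.24, edgeR, Benjamini-Hochberg adjusted p = 0.126 over all genes). The interval reaches from a fall to 0.278 of the Control level to a rise of 1.22-fold, so a change of PDK1 of either kind was not resolved.

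Among the members PDK1 has one of the AT-rich transcripts, with a GC content of 39.8% in its longest protein-coding GENCODE 29 transcript, and 14.2% of the tested genes with a value lay lower. Its level moved with a trend along GC content and transcript length that differed between libraries. That trend at the GC content and length of PDK1 was 0.44, -0.21 and 0.52 in Control replicates 1 to 3 and 0.66, -0.19 and -1.22 in CPI-613 replicates 1 to 3, as log2 deviations from the gene mean. The deviations of PDK1 itself were 0.79, -0.44 and 0.81 in Control and 0.21, -0.26 and -1.11 with CPI-613. With the trends taken out of every library (termed GC- and length-adjusted), the log2 fold change of PDK1 was -0.30 (SE 0.215; edgeR, Benjamini-Hochberg adjusted p = 0.44). This adjustment also takes out any difference between the groups that runs along GC content or length, and the 2 cannot be told apart.

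**Figure D3:**
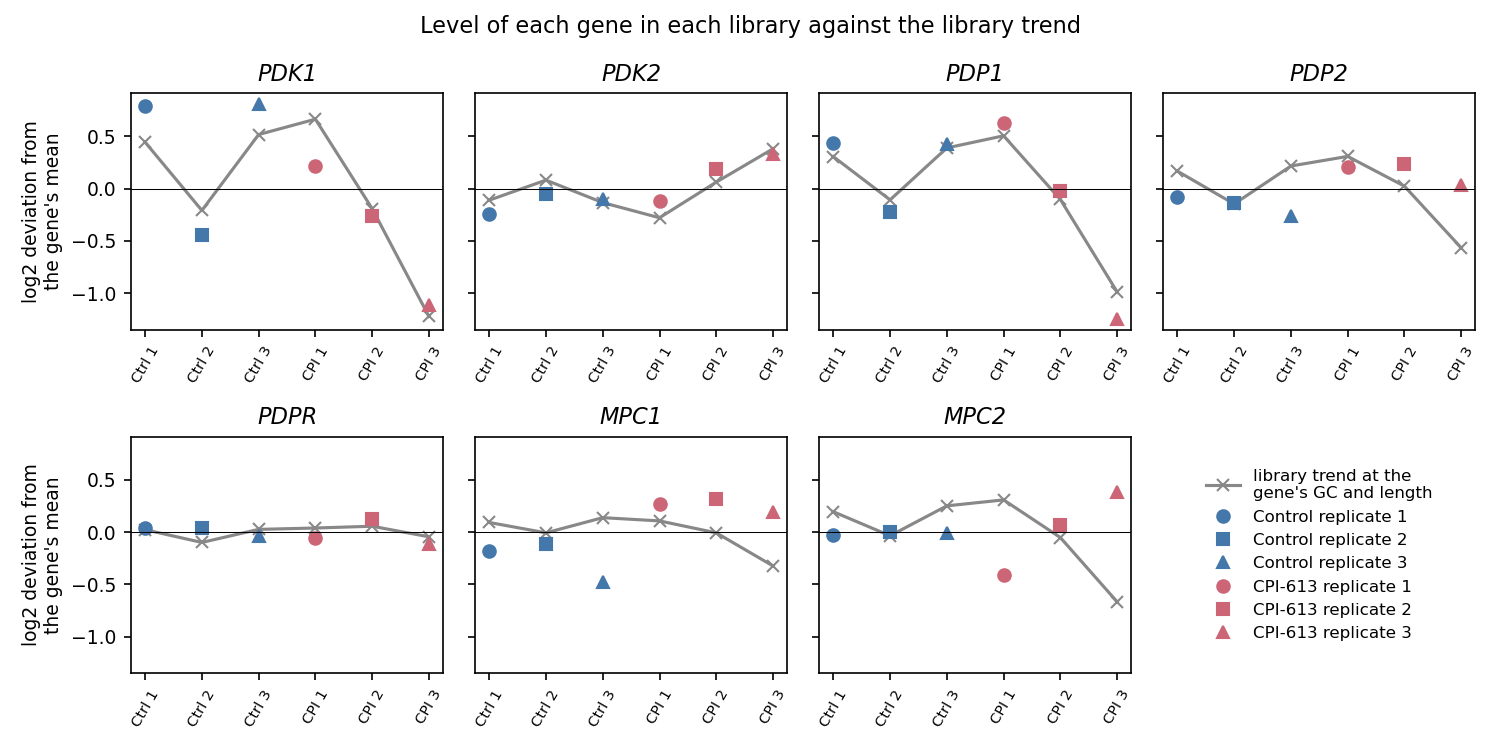
Each panel shows 1 of the 7 tested genes: coloured symbols are the log2 CPM of each library minus the gene's mean (blue Control, red CPI-613), and grey crosses the trend of that library at the gene's GC content and length. In PDK1 and PDP1 the symbols run near the crosses, down to -1.11 and -1.25 in CPI-613 replicate 3. MPC1, MPC2 and PDP2 lie away from them there.

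PDK2 (gene ID 5164, chromosome 17 at 50094737 to 50112152), a kinase found in most tissues, measured 16.3, 18.7 and 18 CPM in Control and 17.8, 22.1 and 24.5 CPM with CPI-613. CPI-613 replicates 2 and 3 were the highest libraries, and replicate 1 lay within the Control range. The log2 fold change was 0.28 (SE 0.23, 95% interval -0.27 to 0.82; edgeR, Benjamini-Hochberg adjusted p = 0.713). In FPKM the estimate was -0.02 (limma on log2 of FPKM plus 1, adjusted p = 0.947), since PDK2 lay at 8.41, 9.21 and 8.38 FPKM in Control and 8.20, 8.71 and 8.59 FPKM with CPI-613. Relative to its level, PDK2 had the narrowest range of the 9 genes on that scale.

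PDK3 (gene ID 5165, chromosome X at 24465286 to 24550466), the kinase known as the most active of the family, had 17, 9 and 11 counts in Control and 7, 5 and 10 counts with CPI-613. The groups overlapped. It did not pass the filter on low counts. With no filter its log2 fold change was -0.77 (edgeR, Benjamini-Hochberg adjusted p = 0.578). PDK4 (gene ID 5166, chromosome 7 at 95583499 to 95596516), the kinase induced by fasting and fatty acids in muscle, heart and liver, had 2, 1 and 1 counts in Control and 3, 2 and 1 counts with CPI-613. At this depth no fold can be given for PDK4, and a rise or fall was not detectable.

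Together the 4 kinases summed to 19.9, 14.5 and 20.2 FPKM in Control and 16, 14 and 11.8 FPKM with CPI-613. PDK3 and PDK4 made up 1.06% to 3.06% of that sum in any library. The share of PDK1 was 55.5%, 34.2% and 56.2% in Control and 47.7%, 36.5% and 24% with CPI-613, and the remainder was nearly all PDK2. PDK1 thus exceeded PDK2 in Control replicates 1 and 3, and PDK2 exceeded PDK1 in Control replicate 2 and in all 3 CPI-613 libraries. These shares were not tested, and they carry the same library trends as PDK1 itself.

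The estimated counts of PDK1 were spread over 7 RefSeq transcripts. XM_011511345, a predicted transcript, held 50%, 40.2% and 38.4% of them in Control and 63.9%, 62% and 67% with CPI-613, higher in each CPI-613 library than in each Control library. The curated transcript NM_002610 held 27.3%, 16.6% and 24.3% in Control and 18.5%, 12.9% and 12.5% with CPI-613, and here Control replicate 2 lay below CPI-613 replicate 1. XM_011511347 took 29.7% in Control replicate 2, where XM_011511344 had 0%, and both had 0% in 2 CPI-613 libraries. In Control replicates 1 and 3 and CPI-613 replicate 2 these transcripts held equal shares, 6.52%, 12.37% and 6.7% each. The 29.7% may thus reflect how reads were divided between them. How reads shared by transcripts were divided is not given in the sources used here, and the shares were not tested. Such a separation of the groups was not particular to PDK1. NM_001329929 held 16.93% to 32.65% of PDP2 in Control and 4.4% to 14.86% with CPI-613. XM_017023388 held 0.22% to 0.28% of PDPR in Control and 0.43% to 1.5% with CPI-613. It rests on few estimated counts, 2.68 to 3.32 in Control and 5.68 to 16.68 with CPI-613. How often transcripts of all genes separate the groups in this way was not counted. Of the other members, PDK2 drew 87.9% of its counts over all libraries from NM_002611, MPC2 86.5% from XM_006711266, PDP1 78% from NM_018444 and MPC1 77.8% from NM_016098. PDP2 (8 transcripts) and PDPR (9) were more divided, with 45.3% and 42.5% in the leading transcript.

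**Figure D4:**
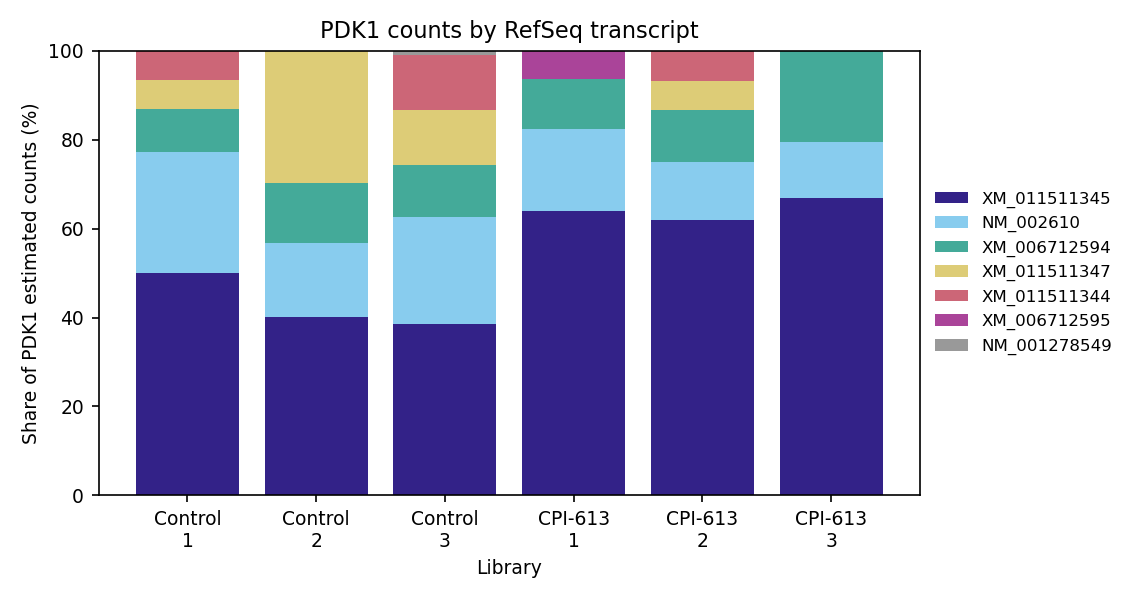
Share of the estimated PDK1 counts in each of 7 RefSeq transcripts, in percent, with 1 stacked bar per library, 3 Control and 3 CPI-613. The dark blue part, XM_011511345, is 38.4% to 50% of the bar in Control and 62% to 67% with CPI-613.

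None of the phosphatase genes was called. PDP1 (gene ID 54704, on chromosome 8), the calcium-stimulated catalytic subunit, measured 62.6, 39.8 and 62.5 CPM in Control and 71.5, 45.6 and 19.5 CPM with CPI-613. CPI-613 replicate 1 was the highest library of all 6 and CPI-613 replicate 3 the lowest, so the Control libraries lay inside the CPI-613 range. The log2 fold change was -0.27 (SE 0.45, 95% interval -1.34 to 0.80; edgeR, Benjamini-Hochberg adjusted p = 0.844), and it was 0.10 without CPI-613 replicate 3. PDP1, at a GC content of 41%, followed the library trends as PDK1 did, and GC- and length-adjusted its estimate was -0.03 (SE 0.15, 95% interval -0.37 to 0.31).

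PDP2 (gene ID 57546, chromosome 16 at 66880515 to 66891101), the catalytic subunit known to be less dependent on calcium, measured 26.8, 25.6 and 23.6 CPM in Control and 32.7, 33.4 and 28.9 CPM with CPI-613. All 3 CPI-613 libraries lay above all 3 Control libraries. The log2 fold change was 0.32 (SE 0.20, 95% interval -0.15 to 0.80; edgeR, Benjamini-Hochberg adjusted p = 0.586). In FPKM the groups overlapped, since CPI-613 replicate 3 had the lowest value, 3.53 FPKM. GC- and length-adjusted the estimate was 0.49 (SE 0.21; edgeR, Benjamini-Hochberg adjusted p = 0.204).

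PDPR (gene ID 55066, chromosome 16 at 70113626 to 70163427), which lowers the sensitivity of the catalytic subunit to magnesium, had the smallest SE of the 7 tested genes in edgeR. It measured 96, 96.1 and 90.7 CPM in Control and 90, 101.9 and 86.4 CPM with CPI-613, with the Control libraries inside the CPI-613 range. In FPKM all 3 CPI-613 libraries (11.44, 11.55 and 8.86) lay below all 3 Control libraries (12.72, 11.73 and 11.77), as in 15.4% of tested genes with an FPKM value. The estimate on that scale was -0.18 beside a median of -0.16 over all genes (limma on log2 of FPKM plus 1, adjusted p = 0.615). Its edgeR log2 fold change of -0.02 (SE 0.16) had a 95% interval of -0.41 to 0.36, which spans 0.754 to 1.28 of the Control level. RefSeq lists a transcribed pseudogene, PDPR2P, so PDPR counts are uncertain to the extent that reads of the copy were counted in.

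In FPKM, the sum of PDP1 and PDP2 was 21.8, 14.2 and 20.6 in Control and 23.7, 15.3 and 7.6 with CPI-613. The ratio of summed kinases to this sum was 0.914, 1.02 and 0.979 in Control. With CPI-613 it was 0.674, 0.917 and 1.55, on both sides of the Control values. No direction in the RNA ratio of kinases to phosphatases can be read from these libraries.

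MPC1 had the smallest p of the members. MPC1 (gene ID 51660, chromosome 6 at 166364919 to 166382940) measured 17.2, 17.9 and 14 CPM in Control and 23.5, 24.2 and 22.3 CPM with CPI-613. All 3 CPI-613 libraries lay above all 3 Control libraries, in CPM and also in FPKM, where Control had 23.3, 24.7 and 18.7 and CPI-613 28.5, 29.9 and 27 FPKM. On the FPKM scale 8.38% of tested genes were higher in this way. The means were 16.4 ± 2.1 and 23.3 ± 0.959 CPM (SD, n = 3). The log2 fold change of 0.51 (SE 0.22, 95% interval -0.01 to 1.03) did not pass (edgeR, Benjamini-Hochberg adjusted p = 0.361, and 0.0281 to 0.975 in other settings). Its estimate stayed above 0 in all 26 alternatives, from 0.32 to 0.79. GC- and length-adjusted it was 0.66 (SE 0.18; edgeR, Benjamini-Hochberg adjusted p = 0.0574), and of the 6 fits that left out 1 library under this adjustment, a choice made after seeing the data, 1 called it, the one without CPI-613 replicate 1 (0.76; edgeR, Benjamini-Hochberg adjusted p = 0.0281). In that same fit PDP2 was called higher too (0.65; edgeR, Benjamini-Hochberg adjusted p = 0.0491), which made 2 members called higher where 11.7% of all genes were called higher.

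MPC2 (gene ID 25874, chromosome 1 at 167916675 to 167937072), the partner of MPC1, measured 23.9, 24.3 and 24.1 CPM in Control and 18.3, 25.5 and 31.8 CPM with CPI-613. The Control libraries had an SD of 0.2 CPM, and the CPI-613 libraries lay on both sides of them. The log2 fold change was 0.06 (SE 0.26, 95% interval -0.55 to 0.68; edgeR, Benjamini-Hochberg adjusted p = 0.935), and its sign changed with the scaling, to -0.05 with upper-quartile scaling and -0.16 with library size only. GC- and length-adjusted it was 0.46 (SE 0.40; edgeR, Benjamini-Hochberg adjusted p = 0.515), and 0.81 when CPI-613 replicate 1 was left out as well (edgeR, Benjamini-Hochberg adjusted p = 0.064). Per length, MPC1 stood at 0.713, 0.778 and 0.575 of MPC2 in Control and at 1.20, 0.981 and 0.772 with CPI-613, where CPI-613 replicate 3 lay within the Control range. The sum of both subunits was 51.3 to 56.5 FPKM in Control and 52.2 to 62.1 FPKM with CPI-613. MPC2 overlaps DCAF6, and PDK2 overlaps SAMD14, in the RefSeq table, and whether reads were counted by strand is not given in the sources used here.

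Across the 6 libraries, 3 genes had patterns closest to that of MPC1 among 10867 tested genes whose log2 CPM averaged at least 2, by the root mean square difference of log2 CPM after centring on the Control mean. They were IQGAP3 (0.0521), CCDC57 (0.0711) and TIGD6 (0.0827). IQGAP3, a scaffold protein of the cytoskeleton, measured 155, 177 and 141 CPM in Control and 226, 230 and 222 CPM with CPI-613, a log2 fold change of 0.52 that was not called either (edgeR, Benjamini-Hochberg adjusted p = 0.183).

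The enzymes these regulators act on gave no call. Of the 5 subunits of the pyruvate dehydrogenase complex (PDHA1, PDHB, DLAT, DLD and PDHX) 0 were called higher and 0 lower by edgeR, where 3.18% of all genes were called. GC- and length-adjusted it was again 0, where 11.7% of all genes were called. The median log2 fold change was -0.09 beside 0.02 over all tested genes. With the adjustment that median turned to 0.13, beside 0.04 over all genes. PDHA1, the E1 alpha subunit that the kinases phosphorylate, measured 44, 53.8 and 45.5 CPM in Control and 45, 54.4 and 60.1 CPM with CPI-613. DLAT, the E2 subunit that carries lipoate and anchors the kinases, measured 51.4, 47.2 and 57.2 CPM in Control and 56.5, 53.1 and 36.7 CPM with CPI-613. In both genes the groups overlapped. The summed kinases amounted to 51.6% to 90% of the PDHA1 level in Control and 49.6% to 66.4% with CPI-613, per length.

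Lipoylation and lipoate transfer enzymes gave 0 calls among 9 tested genes of 10, with a median log2 fold change of 0.11. NDUFAB1, the mitochondrial acyl carrier protein, measured 54.6 to 67.5 CPM in Control and 46.2 to 85.1 CPM with CPI-613. MECR, a mitochondrial fatty acid synthesis enzyme, measured 22.3 to 26.5 and 21.1 to 37.9 CPM. The branched-chain and 2-oxoglutarate complexes with their own kinase BCKDK and phosphatase PPM1K gave 0 calls of 10, beside the same 3.18% of all genes. Their median of -0.15 turned to 0.04 when GC- and length-adjusted. Of these, OGDH, the E1 of the 2-oxoglutarate complex, measured 207 to 284 CPM in Control and 252 to 463 CPM with CPI-613. OGDH was called in 1 alternative, GC- and length-adjusted without CPI-613 replicate 1 (0.51; edgeR, Benjamini-Hochberg adjusted p = 0.038). DLST, its lipoate-bearing E2, measured 98.8 to 125 and 128 to 172 CPM (log2 fold change 0.45; edgeR, Benjamini-Hochberg adjusted p = 0.362). Each CPI-613 library of DLST lay above each Control library, as in 11.8% of all tested genes. DHTKD1 of the same list, named after its values were seen, separated the other way. It measured 67.3 to 69.7 CPM in Control and 46.9 to 59.7 CPM with CPI-613 (log2 fold change -0.32; edgeR, Benjamini-Hochberg adjusted p = 0.549).

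A list of pyruvate makers and users, widened to acetyl-CoA enzymes outside the complex, held 4 called members, all higher, of 16 tested. Of all genes 1.94% were called higher. The other 12 had no call, and the median log2 fold change of the list was 0.35. All gene lists here were written with earlier results of these data known, so their counts are a description and no test of enrichment. PCK2, the mitochondrial enzyme that makes phosphoenolpyruvate, rose from 15.5, 19.5 and 15.4 CPM to 165, 232 and 309 CPM (log2 fold change 3.81, SE 0.29; edgeR, Benjamini-Hochberg adjusted p = 0.00418). GPT2, which converts pyruvate to alanine in mitochondria, rose from 39.4, 50.9 and 35.2 to 149, 204 and 274 CPM, which is 2.32 on the log2 scale (SE 0.28). ACSS2, which makes acetyl-CoA from acetate, rose by 2.48 (SE 0.25) and ACLY, which makes it from citrate, by 1.23 (SE 0.23) on the log2 scale. LDHA, a lactate dehydrogenase subunit that is also among the HIF1 targets and is named here after its values were seen, measured 2557, 2026 and 2712 CPM in Control and 1288, 1514 and 1691 CPM with CPI-613. Its groups did not overlap by CPM, as in 21% of all tested genes in either direction. Its log2 fold change of -0.70 was not called (edgeR, Benjamini-Hochberg adjusted p = 0.162). GC- and length-adjusted the LDHA estimate was -0.48 (edgeR, Benjamini-Hochberg adjusted p = 0.283). LDHB and LDHD also lay lower in every CPI-613 library with no call, and PC and SLC25A1 lay higher in the same way. GC- and length-adjusted, 7 of the 16 were higher, with PC, ME1 and SLC25A1 added, where 6.65% of all genes were. Thus 4 genes of this list were called, each with an estimate of 2-fold or more, in libraries in which no member passed. SLC25A1 and LDHD had estimates of that size as well, 1.06 and -1.05 (log2), but were not called without the adjustment.

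Among 28 tested HIF1 targets known beside PDK1 and PDK3, 1 was called higher, 1 lower, and 26 had no call, where 3.18% of all genes were called. Their median change was -0.63 (log2), beside 0.02 over all genes, and 21 of the 28 estimates lay below 0. The estimate of PDK1 lay below 0 too, but a shared cause was not tested. PFKFB3, which makes the activator of glycolytic phosphofructokinase, fell from 189, 173 and 222 CPM to 51.8, 60.1 and 75.1 CPM (log2 fold change -1.64, SE 0.21; edgeR, Benjamini-Hochberg adjusted p = 0.0116). VEGFA, the angiogenic growth factor, rose from 379, 281 and 394 CPM to 1646, 1585 and 1275 CPM (log2 fold change 2.10, SE 0.22; edgeR, Benjamini-Hochberg adjusted p = 0.0072). GC- and length-adjusted, 1 was higher and 5 were lower, where 11.7% of all genes were called, with a median of -0.26, and the number called lower ran from 0 to 7 over the alternatives. The 4 added to the lower genes there, CA9, EGLN3, BNIP3 and ADM, were chosen for naming after their values were seen. CA9, carbonic anhydrase 9, had 61.3, 11 and 65.2 CPM in Control and 1.14, 1.85 and 5.66 CPM with CPI-613, and Control replicate 2 was the lowest Control library in CA9 as in PDK1.

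**Figure D5:**
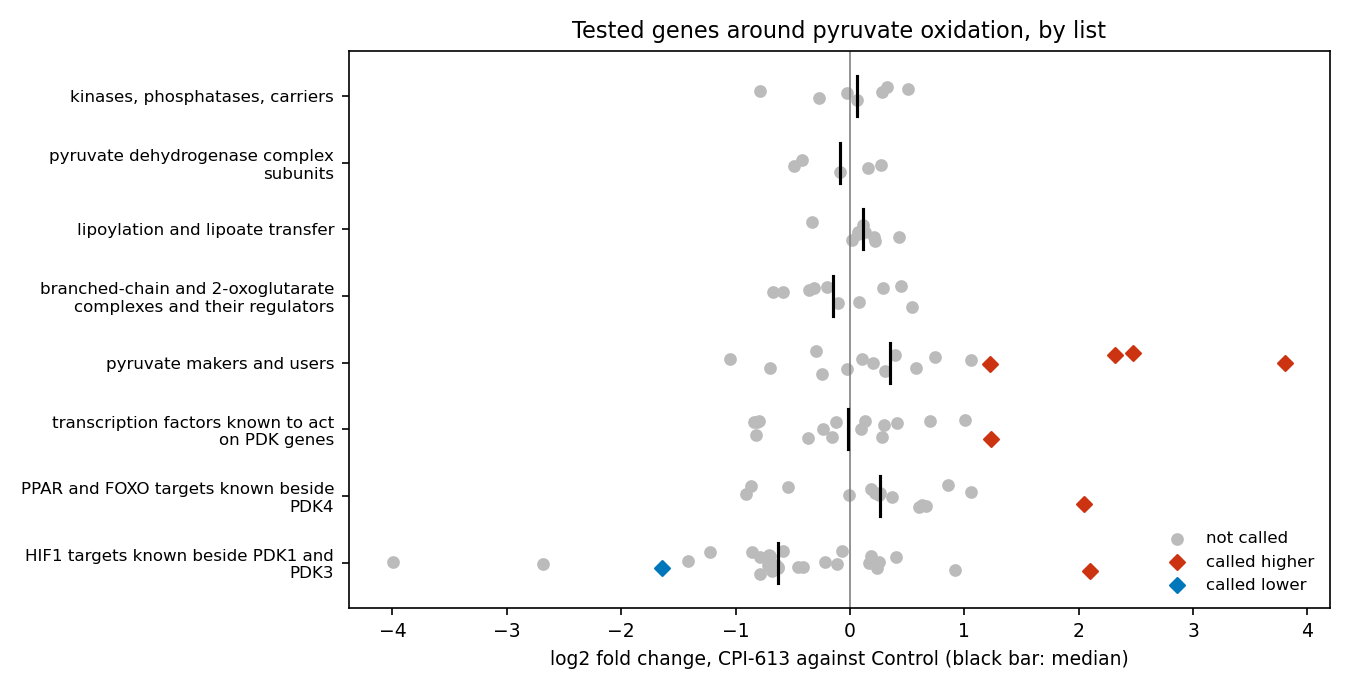
Log2 fold change of CPI-613 against Control for the tested genes of each list (1 point per gene, spread vertically for sight), with the list median as a black bar and called genes as coloured diamonds. The kinases, phosphatases and carriers lie between -0.78 and 0.51 with no call, the pyruvate makers and users hold 4 genes called higher, and the HIF1 targets have the lowest median, -0.63.

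Of 16 tested transcription factors known to act on PDK genes, 1 was called higher and 0 lower, where 3.18% of all genes were called. Their median log2 fold change was -0.01. GC- and length-adjusted, 2 were higher (MYC and CEBPB) and 2 lower (PPARGC1B and E2F1), where 11.7% of all genes were called. The median was then 0.04, and the number lower ran from 0 to 3 over the alternatives. MYC, a growth-promoting transcription factor, rose from 112, 162 and 118 CPM to 277, 301 and 345 CPM (log2 fold change 1.23, SE 0.21; edgeR, Benjamini-Hochberg adjusted p = 0.0275). HIF1A, the oxygen-regulated HIF1 subunit, measured 91.9, 46.2 and 100.2 CPM in Control and 91.5, 31.3 and 12.4 CPM with CPI-613. Its log2 fold change of -0.82 (SE 0.68) was not called. Largely the same libraries were low as in PDK1, but this was not particular to the pair. PDHX measured 30.4, 24.1 and 31.9 CPM in Control and 32.9, 20.8 and 7.9 CPM with CPI-613. A link between HIF1A and PDK1 was not tested. Leaving out CPI-613 replicate 1 moved HIF1A to -1.86, and leaving out CPI-613 replicate 3 moved it to -0.37. GC- and length-adjusted it was -0.60 with no call, and HIF1A was called lower only without CPI-613 replicate 1 under that adjustment (-0.90; edgeR, Benjamini-Hochberg adjusted p = 0.0239). FOXO1, an activator of PDK4, measured 24.9, 15 and 26.1 CPM in Control and 17.8, 14.4 and 5.35 CPM with CPI-613, and was not called. PPARD and ESRRA, nuclear receptors of oxidative metabolism, had log2 fold changes of 0.41 and 0.30 with overlapping groups and no call. PPARGC1A, their coactivator, was at 0.458 CPM or less in every library and was not tested.

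Of 15 tested PPAR and FOXO targets known beside PDK4, 1 was called higher, 0 lower, and 14 had no call, where 1.94% of all genes were called higher. Their median change was 0.27 (log2). ANGPTL4, a lipoprotein lipase inhibitor, rose from 23.6, 11.8 and 24.9 CPM to 59.4, 80 and 109.6 CPM (log2 fold change 2.05, SE 0.37; edgeR, Benjamini-Hochberg adjusted p = 0.0338), while PDK4 had at most 3 counts in any library. GC- and length-adjusted, 4 genes of this list were higher, where 6.65% of all genes were. All 8 called genes named from the lists (PCK2, GPT2, ACSS2, ACLY, PFKFB3, VEGFA, MYC and ANGPTL4) lost the call without Control replicate 1 or without Control replicate 3 in edgeR, with adjusted p of 0.0609 to 0.232 and 0.0635 to 0.229. GC- and length-adjusted, all 8 kept it in both cases, with adjusted p of 0.00107 to 0.0467 and 0.0012 to 0.031. With no adjustment, only PCK2 of the 8 was still called without CPI-613 replicate 2, and ACLY and ANGPTL4 lost it without Control replicate 2. GC- and length-adjusted, 7 of the 8 were called without CPI-613 replicate 2, all but ANGPTL4 (edgeR, Benjamini-Hochberg adjusted p = 0.0551). All 8 were called without Control replicate 2 under that adjustment. DESeq2 and limma-voom on all libraries called all 8.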

How the data were processed

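RNA of 3 Control and 3 CPI-613 samples was extracted with TRIzol, made into NEBNext Ultra II libraries and sequenced on DNBSEQ, per the labels' protocols. Build hg38 and the tools STAR 2.5, HTSeq, CASAVA, DESeq2 and edgeR 3.16.5 stand, without roles, in the submitters' processing notes. No source used here names the counter or annotation release. One deposited table gives, for each RefSeq transcript, the estimated counts. The other deposited table holds values per gene taken as FPKM, since over 1711 genes of 1 transcript the worth of 1 count followed the inverse library total within 0.61%. In 27 transcripts, none of a member, a cell held no number, and these were left out.

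Counts were summed per gene, rounded, filtered with filterByExpr (minimum count 10, total 15), normalised by TMM and fitted in edgeR 4.0.16 (quasi-likelihood, two-sided, group the only covariate), with Benjamini-Hochberg adjustment over 12671 genes at 0.05. SE is the log2 fold change over the square root of F, and 95% intervals use the fit's degrees of freedom. CPM use the TMM-scaled library size. The longest GENCODE 29 protein-coding transcript of a gene gave its GC content and length, matched for 99.48% of tested genes; each library's spline trend entered as an offset. Alternatives used DESeq2 1.42.0, limma 3.58.1 (voom, and log2 of FPKM plus 1 or 0.1, for genes with a mean FPKM of at least 1 or all genes), other scalings and filters, and left-out libraries. The fit was tested on simulated data, which were drawn without library trends along GC content and length and so say nothing about those. Depth is the total count, and since pairs of libraries differed beyond counting error, precision rests on the 3 libraries per group.

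The members, the lists and the naming rule (all members; called list members up to 6, or the 2 of highest CPM; the 3 genes most like the member of smallest p; 6 regulators) were chosen with earlier results of these data known. Coordinates and promoters are RefSeq's for GRCh38 patch 14, matched by gene identifier.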

Additional observations from a re-analysis of the deposited data

How the results depend on the processing

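All values are edgeR unless another tool is named. Of the 7 tested members 0 were called in every setting except 1, where 2 were higher (GC- and length-adjusted without CPI-613 replicate 1). The number of all genes called higher, 246, was 491 with DESeq2, 842 GC- and length-adjusted and 54 at an adjusted p of 0.01, 0 to 467 with 1 library left out, and 350 to 1493 with that and the adjustment. The number lower, 157, was 402, 635 and 16 in those settings, 0 to 438 and 254 to 1163 with 1 library left out, 259 by library size only, 287 with limma on unfiltered FPKM, and 407 without Control replicate 2 and CPI-613 replicate 3. Whether the replicate numbers pair the samples is not given in the sources used here. Deviations of same-numbered libraries from their group means correlated across genes at 0.457, -0.096 and -0.608. With 3 libraries per group and trends that run through whole libraries, these values cannot settle it. The replicate block gave 109 higher and 82 lower (485 and 405 with the adjustment) and 0 called members.

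Signs that turned all belong to estimates with no call, and the cause was not tested. The median log2 fold change over all genes, 0.02, moved too in several of these settings. It was -0.17 by library size only and -0.08 by upper quartile. With limma on FPKM it was -0.18, -0.16 and -0.08, in the order of the next sentence. With limma on FPKM (pseudocount 0.1, then 1 with and without filter) MPC2 was -0.14, -0.13 and -0.13, PDK2 -0.027, -0.024 and -0.024, MECR -0.0061, -0.0048 and -0.0048, NDUFAB1 -0.18 each time and PDHA1 -0.049, -0.048 and -0.048. By library size only MPC2 was -0.16, NDUFAB1 -0.15 and PDHA1 -0.05 (-0.0496), and by upper quartile MPC2 was -0.055 and NDUFAB1 -0.046. GC- and length-adjusted, DLAT was 0.13 and NDUFAB1 -0.0037, and with the block 0.13 and -0.0197. Without Control replicate 2 and CPI-613 replicate 3, MPC2 was -0.18, MECR -0.028 and NDUFAB1 -0.16. With 1 library left out, estimates ran from -0.14 to 0.26 for MPC2, -0.75 to 0.096 for PDP1, -0.091 to 0.029 for PDPR, -0.20 to 0.081 for DLAT, -0.031 to 0.56 for ESRRA, -0.060 to 0.39 for MECR and -0.20 to 0.26 for NDUFAB1, and the sign turned without CPI-613 replicate 3 in each, in PDPR also without CPI-613 replicate 1. With the adjustment as well, they ran from -0.092 to 0.81 for MPC2, -0.093 to 0.083 for PDP1, -0.11 to 0.0063 for PDPR, 0.041 to 0.25 for DLAT, -0.028 to 0.13 for MECR, -0.16 to 0.12 for NDUFAB1 and -0.017 to 0.35 for PDHA1. PDK1 stayed below 0 and MPC1 and PDP2 above 0 in all alternatives. The replicate block called 6 of the 8 named list genes, without ACLY and MYC. Depth limits PDK3 and PDK4, which had at most 17 and 3 counts in a library.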
